A study of Homo sapiens with 8 samples.

Results

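Levels of 9 transcriptional targets of p53 were followed on 8 arrays of HT29 cells, a line from a human colorectal carcinoma, and Colo357 cells, a line from a human pancreatic carcinoma. The targets were CDKN1A, GADD45A, CCNG1, BTG2, MDM2, FAS, TNFRSF10B, TP53I3 and SESN1. Every probe set (a group of oligonucleotides that reads 1 transcript) whose only annotated gene symbol was one of these was taken, which gave 17 of the 22277 probe sets on the array and covered 8 of the 9 genes, among 11963 genes with such a probe set. BTG2 had no such probe set in the annotation used and has no value here. Where a gene had several probe sets, the one with the highest mean over the 8 arrays is called its leading probe set.

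The study asked what follows for gene expression when CD24, a small glycosylated protein of the cell surface, is bound by an antibody or lowered by RNA interference. HT29 and Colo357 cells exposed to the anti-CD24 monoclonal antibody SWA11 at 1:40 for 72 h gave 1 array each. Of the HT29 clones with CD24-directed shRNA (a short hairpin RNA that lowers its target transcript), c.833 carried 1 vector, c.G and c.E carried 2 vectors, and each clone gave 1 array. An HT29 clone with a GFP-directed shRNA, untreated parental HT29 and untreated Colo357 gave 1 array each. Each clone is a single clone, and a control antibody is not analysed here. Nothing in the labels says arrays came from separate cultures, so every p-value measures only the spread between these samples and across their probe sets.

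p53 is a transcription factor that is stabilised by DNA damage and other stress and then switches on genes for cell-cycle arrest, DNA repair, apoptosis and antioxidant defence. CDKN1A (p21), GADD45A, BTG2 and CCNG1 act on the cell cycle and the damage response, MDM2 is the ubiquitin ligase that returns p53 to a low level, FAS and TNFRSF10B are death receptors, and TP53I3 and SESN1 act in redox and nutrient stress. Many of these genes are also induced by other transcription factors.

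The windows around annotated transcription starts of 7 of the 9 genes were read from RefSeq (GRCh38.p14), 15 windows in all, each with 250 bases before a start and 50 after it. The 250 bases before a start are shown for 4 genes, 5′ to 3′ on the gene's strand: for CDKN1A and CCNG1 because they passed the antibody test in opposite directions, and for SESN1 and FAS because each held an exact match to the p53 half-site consensus. Capitals mark GC boxes (GGGCGG, or CCGCCC for the other strand) in CDKN1A and CCNG1, and the p53 half-site in SESN1 and FAS.
CDKN1A, chr6:36678464-36678713, plus strand: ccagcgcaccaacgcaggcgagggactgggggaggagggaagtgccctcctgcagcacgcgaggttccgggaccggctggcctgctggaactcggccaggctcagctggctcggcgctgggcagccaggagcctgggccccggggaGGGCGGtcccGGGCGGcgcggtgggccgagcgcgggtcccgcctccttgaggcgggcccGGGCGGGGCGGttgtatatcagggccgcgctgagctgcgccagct
CCNG1, chr5:163437321-163437570, plus strand: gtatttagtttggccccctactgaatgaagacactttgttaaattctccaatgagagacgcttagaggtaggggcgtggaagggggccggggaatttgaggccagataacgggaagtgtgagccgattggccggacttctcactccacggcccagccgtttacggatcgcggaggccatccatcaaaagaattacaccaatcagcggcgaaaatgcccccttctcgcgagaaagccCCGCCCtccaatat
SESN1, chr6:109008989-109009238, minus strand: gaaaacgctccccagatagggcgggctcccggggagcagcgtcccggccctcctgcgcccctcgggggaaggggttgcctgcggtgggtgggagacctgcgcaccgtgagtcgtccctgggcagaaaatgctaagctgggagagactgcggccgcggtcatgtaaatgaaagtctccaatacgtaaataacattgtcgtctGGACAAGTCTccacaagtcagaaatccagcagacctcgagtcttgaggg
FAS, chr10:88991181-88991430, plus strand: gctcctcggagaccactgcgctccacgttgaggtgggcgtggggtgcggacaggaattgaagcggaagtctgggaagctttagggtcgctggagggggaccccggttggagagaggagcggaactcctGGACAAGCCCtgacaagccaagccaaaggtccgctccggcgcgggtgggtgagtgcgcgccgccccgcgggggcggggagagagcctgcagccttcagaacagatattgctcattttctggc

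The CDKN1A window held 4 GC boxes, of which the last pair overlaps, and the CCNG1 window held 1. The p53 half-site, searched with no mismatch and the same on both strands by its symmetry, stood at -49 from the start in SESN1 and at -122 in FAS. It was found in 2 of 15 windows (13.3%) of the targets, against 6.63% of all 35116 windows; windows of 1 gene can overlap and are not independent. A pair of half-sites at most 13 bases apart was found in 0 of 15 windows, against 0.0285% of all windows, and GC boxes stood in 14 of 15 (93.3%), against 45% of all windows. A match is a description of letters and not of a bound site, and the window is short: the p53 response elements of CDKN1A are known to lie farther upstream.

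All values below are MAS5 intensities on a linear scale, with a trimmed mean of 250.1 on every array. Differences are on the log2(intensity + 10) scale, where 1 is a doubling for a bright gene and the added 10 understates changes of dim ones. The median of all values, 45, was the floor for testing: a probe set entered a comparison where its mean over that comparison's arrays was above it. Array medians lay between 32.4 (c.G) and 63.1 (GFP shRNA clone). The c.G array stood apart, with an ACTB 3′/5′ ratio of 1.77 against 1.06 to 1.17 on the others and an 18S rRNA control at 434.8 against 14.7 to 48. The leading CD24 probe set read 558 (c.833), 171.7 (c.G) and 595.5 (c.E) in the CD24 shRNA clones, against 7362.5 in the GFP shRNA clone and 6425.1 in parental HT29, and 4089.7 in antibody-treated against 6425.1 in untreated HT29. In Colo357 it read 1848.9 with antibody and 2038.7 without. Markers of the labelled tissues were mixed. Of 7 colon markers 3 had a mean above the median of all values: LGALS4 (4581.5 in untreated HT29, 139.6 in untreated Colo357), KRT20 (1117.1 in HT29, 6.7 in Colo357) and VIL1, which was lower in HT29 (439.3) than in Colo357 (1123.5). The other 4 were dim in HT29, with CDX1 at 6.5, CDX2 at 3.2, CDH17 at 6.6 and GPA33 at 26.4. Of the duct markers, KRT7 read 5468.1 in Colo357 and 38.8 in HT29, MUC1 1814.7 and 55.6, and KRT19 7691.6 and 3780.2, whereas SOX9 was lower in Colo357 (394.4) than in HT29 (1362.4) and PDX1 was dim in both. None of 3 leukocyte and none of 3 endothelial markers had a mean above that median, and 1 of 3 fibroblast markers had.

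**Figure D1:**
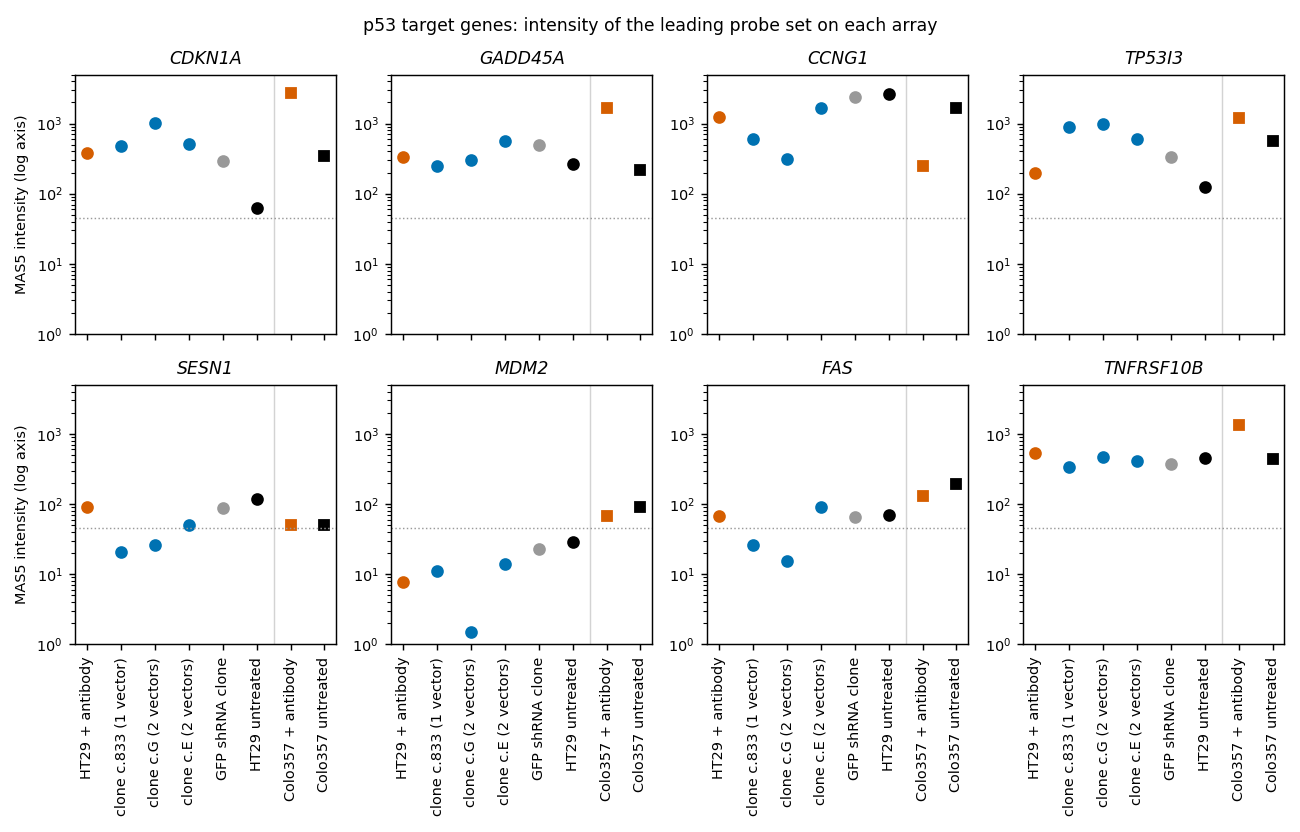
Intensity (MAS5, log axis) of the leading probe set of 8 p53 target genes on each of 8 arrays, 1 point an array with no error bar; circles are HT29 arrays, squares Colo357 arrays, and the dotted line is the median of all values, 45. CDKN1A is lowest in untreated HT29 (63.1) and highest in antibody-treated Colo357 (2687.1), while CCNG1 is highest in untreated HT29 (2635.7) and lowest in antibody-treated Colo357 (249.2).

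The first question was how these genes differed after the antibody. CDKN1A rose in both lines and CCNG1 fell in both, and these were the 2 targets that passed limma's test over both lines. GADD45A and TNFRSF10B were much higher in antibody-treated Colo357 and close to the untreated level in HT29. TP53I3 was modestly higher in both lines, and MDM2, FAS and SESN1 were not higher by that test.

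CDKN1A encodes p21, the cyclin-dependent kinase inhibitor through which p53 halts the cell cycle (chr6:36676463-36687332, 1 probe set). It read 377.2 in antibody-treated against 63.1 in untreated HT29, and 2687.1 in antibody-treated against 342 in untreated Colo357. Those are intensity ratios of 5.98 and 7.86, and both treated arrays lay above both untreated ones. Its probe set stood at the 81.6th percentile of the antibody-treated HT29 array and at the 54.6th of the untreated one, near the middle of the intensity range. The log2 difference over both lines was 2.67 ± 0.34 (limma's moderated SE, 2 lines), with adjusted p = 0.00448 in limma.

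CCNG1 encodes cyclin G1, which recruits a phosphatase to MDM2 (chr5:163437571-163457640, 1 probe set). It read 1226.2 in antibody-treated against 2635.7 in untreated HT29, and 249.2 in antibody-treated against 1658.6 in untreated Colo357. It was thus lower after antibody in both lines, and both treated arrays lay below both untreated ones. The log2 difference was -1.89 ± 0.40 (limma's moderated SE, 2 lines), with adjusted p = 0.0199 in limma. CCNG1 is among the targets that p53 activates, and it moved opposite to CDKN1A.

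Of 13 member probe sets tested, 1 was called higher and 1 lower, where 1.74% of all 11785 probe sets tested were called higher and 3.89% lower. The 8 leading probe sets had a median log2 difference of 0.35, with 4 of 8 above 0, against a median of -0.05 over all probe sets tested. Over all 13 member probe sets the median was -0.14. Under quantile normalisation the leading MDM2 probe set was below the floor, and the median of the other 7 was 0.92, against 0.02 over all. The middle one of those 7 was TP53I3 in both settings, at 0.86 without that normalisation. Most of the step from 0.35 thus comes from the loss of MDM2 from the set. This fit rests on 4 arrays and 1 residual degree of freedom. Variance is pooled by limma over all probe sets tested, which raised the total degrees of freedom to 13.34. The SE and p of a gene thus rest mostly on the variance of other probe sets. They can understate its own distance between the lines, as for CCNG1 (-1.10 in HT29, -2.69 in Colo357). With no floor on intensity, with quantile normalisation or in a fit of all 8 arrays, no probe set of the whole array was called, and the adjusted p of CDKN1A was 0.178, 0.0961 and 0.649 in those settings.

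Among the other cell-cycle targets, GADD45A, a stress-induced protein that binds PCNA (chr1:67685201-67688334, 1 probe set), read 1663.3 in antibody-treated against 214.3 in untreated Colo357, a ratio of 7.76. In HT29 it read 329.1 with antibody and 264.8 without, a ratio of 1.24. Its log2 difference over both lines was 1.60 ± 0.49 (SE), adjusted p = 0.0694 in limma. With a pseudocount of 32 in place of 10 the adjusted p was 0.0384, past the threshold.

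MDM2, the feedback inhibitor of p53 (chr12:68808172-68850686, 5 probe sets), was dim throughout. Its leading probe set read 7.7 in antibody-treated against 28.9 in untreated HT29, and 67.7 in antibody-treated against 91.4 in untreated Colo357. The other 4 probe sets lay between 0.8 and 23.5 on all 8 arrays, below the median of all values. The leading one, of the _x_at class whose probes can match other transcripts, had a log2 difference of -0.76 ± 0.35 (SE), adjusted p = 0.207 in limma, and the other 4 were not tested.

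Of the death receptors, TNFRSF10B, the TRAIL receptor DR5 (3 probe sets), read 1357.1 in antibody-treated against 439.2 in untreated Colo357 on its leading probe set, a ratio of 3.09. Its other probe sets read 645.9 and 615.7 with antibody, against 222.4 and 197.9 without. All 3 lay above 2-fold in that line, at log2 differences of 1.61, 1.50 and 1.59, so they gave similar sizes. In HT29 the leading probe set read 540.8 with antibody and 455.3 without, and the log2 differences of the 3 were 0.24, 0.19 and 0.27. Over both lines the leading one was at 0.92 ± 0.38 (SE), adjusted p = 0.161 in limma.

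FAS, the receptor of FAS ligand (chr10:88964050-89017059, 4 probe sets), read 67.3 in antibody-treated against 69.1 in untreated HT29, and 128.8 in antibody-treated against 191.4 in untreated Colo357. The 4 probe sets had log2 differences of -0.41 to -0.89 in Colo357 and -0.10 to 0.12 in HT29. The 2 death receptors thus did not share a direction in Colo357. The leading FAS probe set was at -0.29 ± 0.34 (SE) over both lines, adjusted p = 0.656 in limma.

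Of the redox and nutrient stress genes, TP53I3, a quinone oxidoreductase also called PIG3 (chr2:24077433-24084834, 1 probe set), read 194.6 in antibody-treated against 123.2 in untreated HT29, and 1202.1 in antibody-treated against 555.6 in untreated Colo357. Its log2 difference was 0.86 ± 0.34 (SE), adjusted p = 0.146 in limma. SESN1, a sestrin that restrains mTORC1 (chr6:108984309-109094846, 1 probe set), read 90.6 in antibody-treated against 117.8 in untreated HT29, and 50.6 in antibody-treated against 49.7 in untreated Colo357. It was at -0.16 ± 0.34 (SE), adjusted p = 0.812 in limma. TP53I3 was higher with antibody in both lines without passing the test, and SESN1 stayed close to its untreated level in Colo357.

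**Figure D2:**
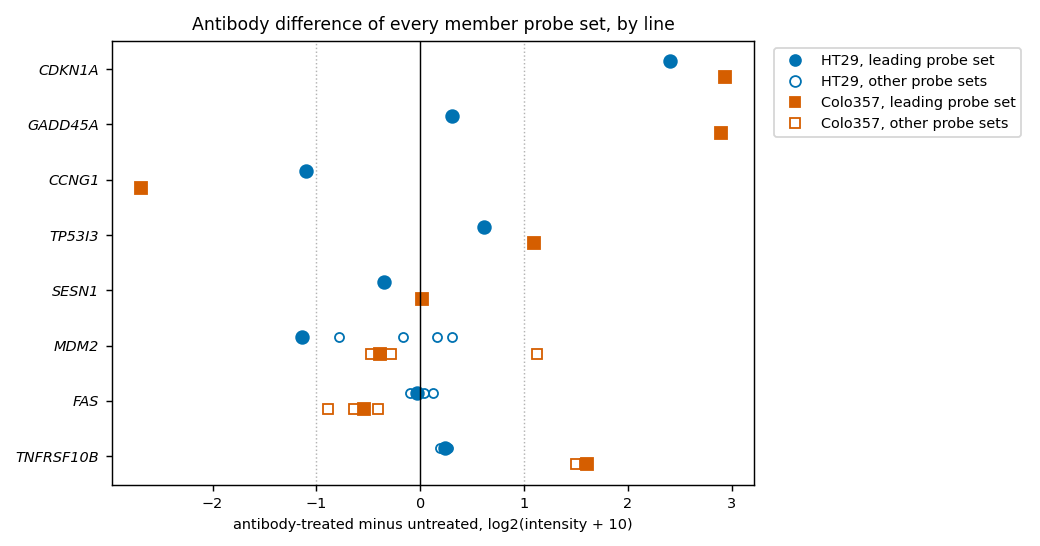
Antibody-treated minus untreated, log2(intensity + 10), for each of 17 probe sets of 8 p53 target genes, with HT29 as circles and Colo357 as squares, filled for the leading probe set; each point is 1 array minus 1 array, with no error, and dotted lines mark 2-fold. CDKN1A lies beyond 2-fold higher in both lines (2.41 and 2.94) and CCNG1 beyond 2-fold lower in both (-1.10 and -2.69), while GADD45A is at 0.30 in HT29 and 2.90 in Colo357.

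Within each line the comparison is 1 array against 1, with no test and no error. In HT29, of 10 member probe sets above the floor, CDKN1A was 2-fold higher and CCNG1 2-fold lower, where 4.64% of 11016 probe sets were 2-fold higher and 8.13% lower. In Colo357, of 13 member probe sets, 6 were 2-fold higher (CDKN1A, GADD45A, TP53I3 and the 3 of TNFRSF10B) and CCNG1 was 2-fold lower, where 10.2% of 11836 probe sets were higher and 14% lower. In both lines at once, 1 of 10 member probe sets was 2-fold higher, against 1.52% of 10234, and 1 of 10 was 2-fold lower, against 4.4%.

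Whether the lines differed in their response was tested on all 8 arrays, where the lone arrays are assumed to vary as the 3 CD24 shRNA clones do. No probe set passed (0% of 11821 in limma, 179 with an unadjusted p under 0.05), and this holds for all 10 member probe sets tested. GADD45A had the smallest unadjusted p of the members, with a difference of 2.60 ± 1.01 (SE, Colo357 minus HT29, unadjusted p = 0.0414, adjusted p = 1.00). TNFRSF10B was at 1.36 ± 0.79 and CCNG1 at -1.59 ± 1.56 (SE). On simulated data this fit recovered no changes of such sizes, so it says nothing on whether the responses of GADD45A and TNFRSF10B differed between the lines.

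The second question was whether the same genes differed in the HT29 clones in which CD24 shRNA lowered CD24. CDKN1A and TP53I3 were higher, and CCNG1 and SESN1 lower, in all 3 clones than in both controls. None of them passed limma's adjusted test, and such a pattern was not rare on the array. All 3 clones lay above both controls for 2 of the 9 member probe sets tested, against 17.4% of all probe sets. The clones lay below both controls for 2 of the 9, against 22.7%. SESN1, 1 of these 2, had a mean over the clones below the floor and entered the test only through the controls. The members thus showed the pattern about as often as all probe sets did. GADD45A and, on its leading probe set, TNFRSF10B lay within the range of the controls or on both sides of it.

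CDKN1A read 477 in c.833, 1017.4 in c.G and 504.9 in c.E, against 296.5 in the GFP shRNA clone and 63.1 in parental HT29. Most of the distance to parental HT29 was present in the GFP shRNA clone as well. On the log2 scale the clones averaged 9.31 ± 0.60 (SD, n = 3) and the controls 7.23 ± 1.46 (SD, n = 2), a difference of 2.09 ± 0.66 (SE), adjusted p = 0.234 in limma. Against the GFP shRNA clone alone the difference was 1.05, and against parental HT29 alone 3.12.

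TP53I3 read 897.5 in c.833, 974.2 in c.G and 601.5 in c.E, against 332.2 in the GFP shRNA clone and 123.2 in parental HT29. The clones averaged 9.67 ± 0.37 (SD, n = 3) and the controls 7.74 ± 0.96 (SD, n = 2) on the log2 scale. The difference was 1.94 ± 0.50 (SE), adjusted p = 0.234 in limma, and 1.26 against the GFP shRNA clone alone. As for CDKN1A, c.G was highest, the GFP shRNA clone lay below all 3 clones and parental HT29 was lowest.

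CCNG1 read 611.3 in c.833, 308 in c.G and 1665.8 in c.E, against 2409.5 in the GFP shRNA clone and 2635.7 in parental HT29. Here the 2 controls were close to each other and c.E lay nearest to them. The difference was -1.87 ± 0.67 (SE), adjusted p = 0.235 in limma. SESN1 read 20.7 in c.833, 25.7 in c.G and 50.9 in c.E, against 87.6 in the GFP shRNA clone and 117.8 in parental HT29, a difference of -1.46 ± 0.43 (SE), adjusted p = 0.234 in limma. Without c.E both passed, CCNG1 at -2.51 (adjusted p = 0.0339 in limma) and SESN1 at -1.75 (adjusted p = 0.0409 in limma). They were among 20 probe sets called higher and 1099 called lower in that fit. SESN1 read below the floor for testing in both clones left there (20.7 and 25.7). Its mean exceeded the floor only through the controls (87.6 and 117.8), so its pass rests on dim clone values. With c.E included (50.9) the mean of SESN1 over the clones was still below the floor, so the same limit holds for the difference of -1.46.

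GADD45A read 246.2 in c.833, 301.9 in c.G and 558.7 in c.E, against 487.9 in the GFP shRNA clone and 264.8 in parental HT29, so the groups overlapped. TNFRSF10B on its leading probe set read 337.7, 460.3 and 409.3 in those 3 clones, against 367.2 in the GFP shRNA clone and 455.3 in parental HT29. Their log2 differences were -0.05 ± 0.49 and -0.03 ± 0.36 (SE), and under quantile normalisation 0.10 and 0.07, so neither leading probe set had a direction. The other 2 TNFRSF10B probe sets were at -0.43 ± 0.44 and -0.36 ± 0.40 (SE), adjusted p = 0.594 and 0.621 in limma. On both of these, c.833 and c.G lay below both controls and c.E lay between the controls.

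FAS read 26.2 in c.833, 15.5 in c.G and 89.9 in c.E on its leading probe set, against 64.5 in the GFP shRNA clone and 69.1 in parental HT29, with a log2 difference of -0.76 ± 0.59 (SE), adjusted p = 0.473 in limma. On that probe set c.E lay above both controls and the others below. The other FAS probe sets did not share this: on 2 of them all 3 clones lay below both controls (c.E at 24 and 22.4, against 31 and 26.2 in the GFP shRNA clone), and on the remaining one c.E (28) lay between the controls (25.6 and 37.1). No MDM2 probe set passed the floor, and the leading one read 10.9, 1.5 and 13.9 in the clones, against 22.6 in the GFP shRNA clone and 28.9 in parental HT29.

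Of the 9 member probe sets tested, which covered 7 genes, 0 were called in limma, against 0% of 11420, and 4 had an unadjusted p under 0.05, as had 2211 of all. At 2-fold, 2 were higher and 2 lower, where 6.05% of all were higher and 19.6% lower. SESN1, 1 of the 2 lower, was above the floor only through the controls. All 3 clones lay above both controls for 2 of the 9, against 17.4% of all probe sets, and below both for 2 of the 9, against 22.7%. The median of the 7 leading probe sets was -0.05, that of all 9 member probe sets -0.36, and that of all probe sets tested -0.07. The c.G array, which had the high 3′/5′ ratio, held the highest CDKN1A and TP53I3 and the lowest CCNG1 of the HT29 arrays. Without c.G the log2 differences were 1.74, 1.80 and -1.31 in that order, each with adjusted p = 0.586 in limma.

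**Figure D3:**
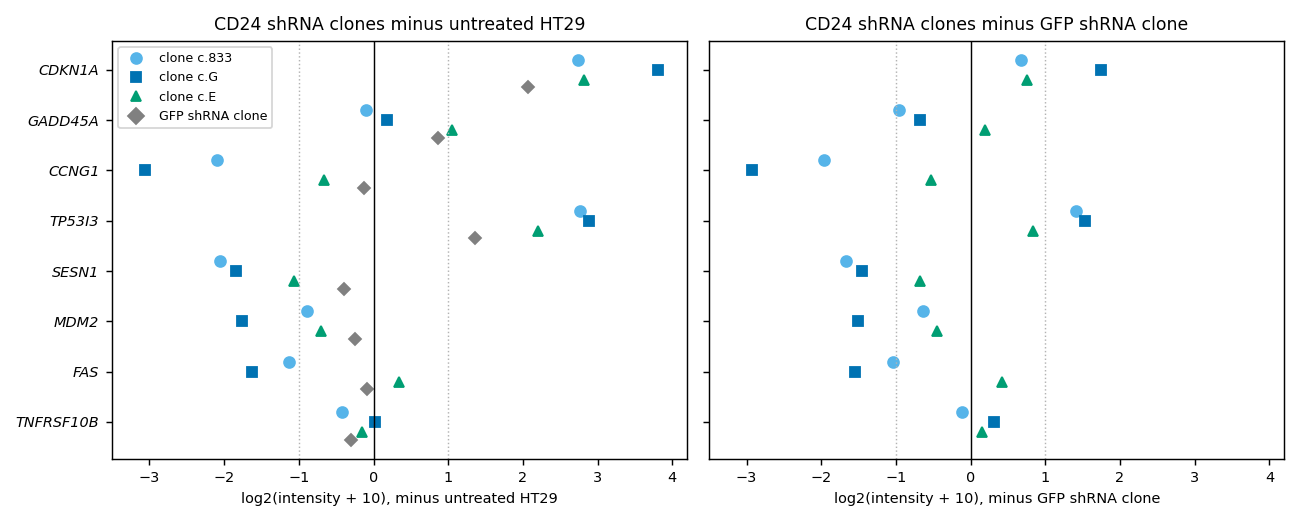
Leading probe sets of 8 p53 target genes in each CD24 shRNA clone, log2(intensity + 10) minus untreated parental HT29 (left) and minus the GFP shRNA clone (right), 1 array minus 1 array a point with no error, and dotted lines at 2-fold; the grey diamonds at left are the GFP shRNA clone itself. CDKN1A lies 2.74 to 3.81 above parental HT29 in the CD24 shRNA clones and 2.07 above it in the GFP shRNA clone, but only 0.67 to 1.75 above the GFP shRNA clone.

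The GFP shRNA clone had no CD24 shRNA, and its distance from parental HT29 has no replicate. CDKN1A read 296.5 in the GFP shRNA clone against 63.1 in parental HT29, a log2 difference of 2.07, and TP53I3 was at 1.36. These were 2 of 9 member probe sets at 2-fold higher, where 15.2% of 11773 probe sets were higher, and 0 of 9 were 2-fold lower, where 6.35% were. GADD45A was at 0.86, CCNG1 at -0.13 and SESN1 at -0.39. CDH1, the adhesion protein E-cadherin, read 13 in c.833, 7.7 in c.G, 1.4 in c.E and 15.4 in the GFP shRNA clone, against 2172.8 in parental HT29, so all 4 clones lay far below the parental line. EPCAM, the other general epithelial marker, read 1307.8, 1613.6 and 2420.9 in c.833, c.G and c.E and 3546.3 in the GFP shRNA clone, against 4027.6 in parental HT29. Of the colon markers above the floor, LGALS4 read 682.2, 53.6 and 32.5 in those 3 clones and 584.5 in the GFP shRNA clone, against 4581.5 in parental HT29, and VIL1 read 248.5, 27.9 and 25 in the clones and 105.5 in the GFP shRNA clone, against 439.3 in parental HT29. KRT20 went the other way, at 4016, 4723 and 4799.8 in the 3 clones, 2761.4 in the GFP shRNA clone and 4015.5 in antibody-treated HT29, against 1117.1 in parental HT29, so it was higher on the same 5 HT29 arrays as CDKN1A. The part of these shared distances in the values of the p53 targets was not tested.

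Set against parental HT29, CDKN1A was at least 2-fold higher on all 5 other HT29 arrays, by 2.07 to 3.81 on the log2 scale. It was the only one of the 7 targets above the floor there with this pattern, which 1.4% of 11417 probe sets had. The parental array is shared by all 5 differences, so a low value there enters each of them. TP53I3 was above the parental level on 5 of 5 arrays (0.62 to 2.89), and CCNG1 and SESN1 below it on 5 of 5 (-3.06 to -0.13 and -2.06 to -0.35).

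The antibody in HT29 can be set beside the shRNA clones without the shared control by comparing the arrays themselves. TP53I3 read 194.6 in antibody-treated HT29, against 601.5 to 974.2 in the clones, a log2 difference of -2.00 ± 0.50 (SE), adjusted p = 0.169 in limma on 8 arrays. SESN1 read 90.6 in antibody-treated HT29, against 20.7 to 50.9, a difference of 1.31 ± 0.55 (SE), adjusted p = 0.335. CDKN1A differed by -0.72 ± 0.59 (SE), adjusted p = 0.607. None of the 10 member probe sets tested passed, where 0.372% of 11821 did. CDKN1A in antibody-treated HT29 (377.2) lay below each CD24 shRNA clone and above the GFP shRNA clone, while TP53I3 lay between parental HT29 and the GFP shRNA clone.

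Over the 8 arrays the leading probe sets of CDKN1A and TP53I3 had a Pearson correlation of 0.858, those of CDKN1A and CCNG1 -0.863, and those of TP53I3 and SESN1 -0.862. MDM2 and CDKN1A were at 0.0219, and GADD45A and TNFRSF10B at 0.80. These are descriptions of 8 arrays, of which 6 are HT29 derivatives. By the same measure the genes most like CDKN1A, of 7184 leading probe sets above the floor, were IL23A (0.975), a cytokine subunit, POLR3C (0.966), a subunit of RNA polymerase III, BATF3 (0.965), a transcription factor, HROB (0.964), a homologous recombination factor, and ISG20 (0.956), an exonuclease. ISG20 read 338.2 in antibody-treated against 72.3 in untreated HT29, and 1368.5 in antibody-treated against 349 in untreated Colo357. Antibody-treated HT29 thus lay just below untreated Colo357 for ISG20, and just above it for CDKN1A.

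The wider p53 pathway was followed through 3 further lists. They were chosen with earlier results of these data known, so counts on them are descriptions and not independent support. Of 39 other p53 targets, 28 had a probe set and 24 were tested in both lines, and 3 of them rose, where 1.74% of all probe sets were called higher: PMAIP1, PLK3 and ATF3. PMAIP1, the BH3-only protein NOXA, read 163.1 in antibody-treated against 88.4 in untreated HT29, and 361.3 in antibody-treated against 69.8 in untreated Colo357 (log2 difference 1.52 ± 0.39, SE, adjusted p = 0.0399 in limma). PLK3, a stress-responsive kinase, was at 1.48 ± 0.34 (adjusted p = 0.0284), and ATF3, a stress-induced transcription factor, at 2.29 ± 0.54 (adjusted p = 0.0297). Untreated PLK3 was close to the floor of 45, at 42.3 in HT29 and 45.5 in Colo357, against 113.9 and 171.6 with antibody. The mean of its untreated arrays was below the floor. PLK3 thus entered the test only through the treated arrays where it is high, which limits its place in the count of 3. ATF3 read 57.8 in antibody-treated against 30 in untreated HT29, and 1051.8 in antibody-treated against 65.2 in untreated Colo357. None of the 24 fell by the test, XPC of nucleotide excision repair being at -1.01 ± 0.34 (adjusted p = 0.0917), and 19 of 24 were above 0, with a median of 0.42 against -0.05 for all probe sets.

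In the clones 0 of 20 tested members of that list passed in limma, 15 were above 0 and 4 were 2-fold higher, as were 6.05% of all probe sets, with a median of 0.38 against -0.07 for all. GDF15, a secreted stress cytokine, read 3686.2 in c.833, 6512.3 in c.G and 5217.7 in c.E, against 1876.1 in the GFP shRNA clone and 874.1 in parental HT29 (1.96 ± 0.47, SE, adjusted p = 0.234 in limma). Its probe set is of the _x_at class. After antibody GDF15 read 2702.5 against 142.4 untreated in Colo357, and 966.6 against 874.1 untreated in HT29. ATF3 in the clones was at 1.81 ± 0.66 (adjusted p = 0.235).

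Of 16 cell-cycle genes that are repressed downstream of p21, 2 fell after antibody by limma's test, MKI67 and CENPF, where 3.89% of all probe sets were called lower, and 11 of 16 were below 0. MKI67, the proliferation antigen Ki-67, read 357.8 in antibody-treated against 933.1 in untreated HT29, and 162.4 in antibody-treated against 1014.4 in untreated Colo357 (-1.96 ± 0.38, SE, adjusted p = 0.0147). CENPF, a kinetochore protein, was at -1.88 ± 0.37 (adjusted p = 0.0158), and the mitotic kinase PLK1 at -1.16 ± 0.34 (adjusted p = 0.0595). E2F1, the S-phase transcription factor, was at 1.18 ± 0.34 (adjusted p = 0.0570), opposite to them. The list's median was -0.57, against -0.05 for all. In bulk RNA, fewer cells in a state and less RNA of a gene in each cell cannot be told apart.

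In the clones the same list had a median of 0.03, with 8 members above 0 and 8 below, and 0 of 16 passed in limma. CDK1, the mitotic kinase, read 46.9 in c.833, 86.6 in c.G and 450.8 in c.E, against 514.8 in the GFP shRNA clone and 1023 in parental HT29 (-2.43 ± 0.85, SE, adjusted p = 0.234). TOP2A, a topoisomerase of dividing cells, was at -2.03 ± 0.56 (adjusted p = 0.234). Against parental HT29, the GFP shRNA clone itself had 14 of 16 below 0, with a median of -0.90 against 0.12 for all probe sets.

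Of 14 regulators and relatives of p53, 12 had a probe set and 8 were tested in both lines, and 0 passed in limma, with a median of -0.41. CHEK2, a damage checkpoint kinase, read 192.3 in antibody-treated against 374.1 in untreated HT29, and 73.1 in antibody-treated against 234.2 in untreated Colo357 (-1.24 ± 0.35, SE, adjusted p = 0.0534). USP7, which removes ubiquitin from p53 and MDM2, was at -0.67 ± 0.34 (adjusted p = 0.251), CHEK1, a member of the cell-cycle list as well, at -0.58 ± 0.34 (adjusted p = 0.315), and PPM1D, a phosphatase that p53 induces, at 0.48 ± 0.34 (adjusted p = 0.413). In the clones PPM1D was at -0.95 ± 0.56 (adjusted p = 0.363) and USP7 at -0.79 ± 0.42 (adjusted p = 0.323), with 0 of 9 passing.

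**Figure D4:**
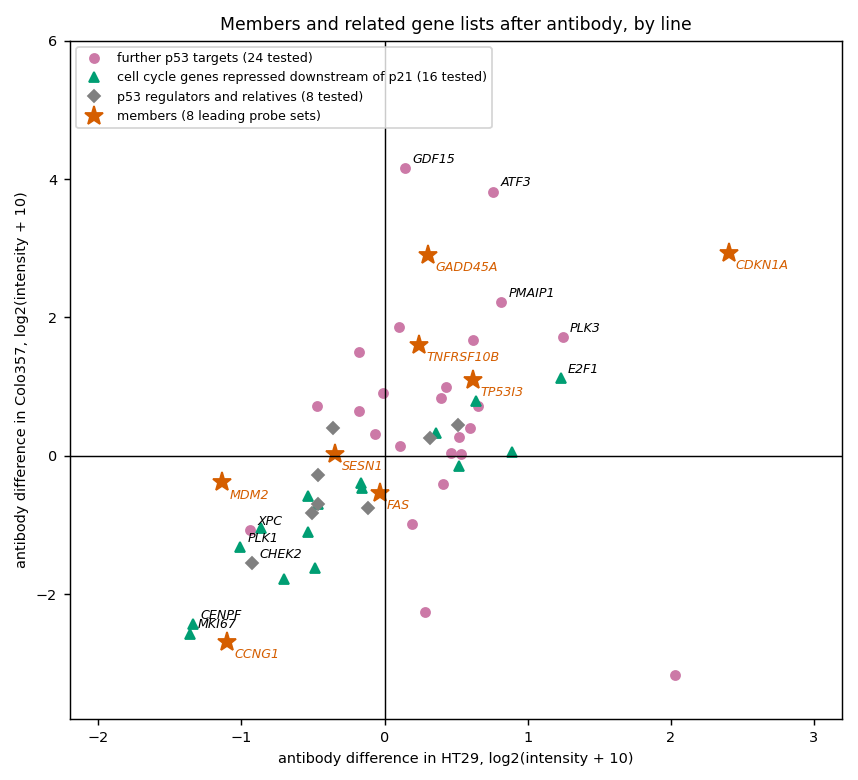
Antibody-treated minus untreated in HT29 (x axis) and Colo357 (y axis), log2(intensity + 10), 1 array minus 1 array with no error, for the leading probe sets of 8 p53 target genes (stars), 24 further p53 targets (circles), 16 cell-cycle genes repressed downstream of p21 (triangles) and 8 p53 regulators (diamonds). CDKN1A lies at the upper right (2.41 and 2.94), CCNG1, MKI67 and CENPF at the lower left, and GDF15 (0.14 and 4.15) and GADD45A (0.30 and 2.90) near the vertical zero line.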

How the data were processed

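RNA of 8 cell samples was hybridised to Affymetrix GeneChips, per the labels' protocols. The authors deposited 1 linear intensity per probe set and array, computed with MAS5 (version not given in the sources used here), per the submitters' processing notes. Of 22277 probe sets 62 were controls. In the platform annotation 19064 had 1 symbol, 1043 had several and 2108 had none. The gene IDs of 19058 probe sets with a single symbol were found in RefSeq, which is not a count of symbols that changed. The annotation lists no single-symbol probe set for BTG2.

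Intensities were used as deposited and converted to log2(intensity + 10), 10 being the rounded 25th percentile (10.1). Comparisons used limma 3.58.1 in R 4.3.3 (lmFit, eBayes) on all non-control probe sets whose mean over the fit's arrays exceeded the overall median of 45, two-sided, with Benjamini-Hochberg adjustment at 0.05 over all of them; SE is limma's moderated SE. The antibody fit had 4 arrays with the line as a block and 1 residual degree of freedom, the shRNA fit 5 arrays and 3, and the 8-array fit 2. Pairs of single arrays have no test, and 2-fold was counted. Precision is limited by the number of arrays. The fits were tested on simulated data. The antibody fit recovered 17 of 50 changes of 1 on the log2 scale and 50 of 50 changes of 2. The shRNA fit recovered 0 of 50 changes of 1, 22 of 50 of 2 and 46 of 50 of 3. A gene that did not pass in the clones may thus still have changed by 1 to 2, and larger differences were missed too. CDH1, at -3.82 ± 1.59 (SE, adjusted p = 0.255 in limma), and LGALS4, at -3.75 ± 1.30 (SE, adjusted p = 0.234 in limma), did not pass.

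All 9 listed targets are named; from each further list, up to 4 genes with the largest smaller difference of both lines and up to 2 with the largest difference in the clones. The members and lists were chosen with earlier results of these data known. The alternatives were a pseudocount of 1 or 32, no floor, quantile normalisation, 1 probe set per gene (the brightest), no _x_at probe sets, the 8-array fit for the antibody, and leaving out each array of the shRNA fit.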

Additional observations from a re-analysis of the deposited data

How the results depend on the processing

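With the antibody over both lines, 663 probe sets were called, against 79 with a pseudocount of 1, 25 with the brightest probe set per gene, 372 without _x_at probe sets, and 0 with no floor, with quantile normalisation or in the 8-array fit. Of the 2 members called, CDKN1A alone (1) was called with a pseudocount of 1 or the brightest probe set per gene, and 0 with no floor, with quantile normalisation or in the 8-array fit. The adjusted p ranged over these alternatives from 0.000792 to 0.649 for CDKN1A and from 0.00742 to 0.649 for CCNG1, while their log2 differences stayed at 2.48 to 2.77 and -1.92 to -1.84. Leaving each array out of the shRNA fit in turn gave 0 to 1119 calls (1119 without c.E, 28 without the GFP shRNA clone, 0 otherwise) and 0 to 2 member calls. At 2-fold, no floor gave 2833 probe sets for the antibody in HT29 (1407 with the floor), 4370 in Colo357 (2865) and 4223 for the GFP shRNA clone (2540), and the brightest probe set per gene gave 857, 1730 and 1611, and 1742 for the CD24 shRNA clones (2930). Fewer or more probe sets entered these counts by construction; the cause of the other changes was not tested. Quantile normalisation moved the share of higher among 2-fold differences from 36.3% to 49.8% for the antibody in HT29, from 23.6% to 40.3% for the CD24 shRNA clones and from 70.6% to 53.5% for the GFP shRNA clone, and the median of all probe sets from -0.07 to 0.11 in the clones and from 0.12 to -0.05 in the GFP shRNA clone. In the clones GADD45A turned from -0.05 to 0.10 and TNFRSF10B from -0.03 to 0.069 under it, and leaving out single arrays gave -0.48 to 0.38 for GADD45A (0.19 without c.833, 0.05 without c.G, 0.38 without the GFP shRNA clone) and -0.19 to 0.12 for TNFRSF10B (0.08 without c.833, 0.12 without parental HT29). CDKN1A, TP53I3, CCNG1 and SESN1 kept their direction in the clones under every alternative run on that fit. An array could not be left out of the antibody fit with a test, since 1 line alone has no residual degree of freedom. The line was a block in the antibody fit as reported. No further pairing could be fitted, since the labels give no replicate numbers that groups share.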

Other observations

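IGFBP3, a listed p53 target that binds insulin-like growth factors, was named here after its values were seen. It read 453.9 in antibody-treated against 4171.2 in untreated Colo357, a log2 difference of -3.17. In HT29 it read 39.9 with antibody and 2.2 without, both under the median of all values, 45. The mean over both lines was -0.57 ± 0.79 (SE, adjusted p = 0.704 in limma). PIDD1, a death-domain protein, read 8.5 in antibody-treated against 78.2 in untreated Colo357, and 89.3 in antibody-treated against 71.7 in untreated HT29. These values come from 1 array each, and the test of a difference between lines called none of the 11821 probe sets in it (limma, adjusted p under 0.05; 179 at an unadjusted p under 0.05). On simulated data that test recovered 0 of 50 changes of 3 on the log2 scale, the largest size tried. Nothing on these 2 genes is therefore concluded from it.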
